A study of Mus musculus with 36 samples.

Results

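Immediate early genes are transcribed within minutes of a stimulus, before any new protein is made, and their mRNAs are short-lived. Many encode transcription factors: FOS and JUN proteins pair to form AP-1, EGR1 and KLF6 are zinc finger factors, and MYC drives genes of growth and ribosome production. Others act as brakes, as DUSP1 does by removing phosphate from MAP kinases. In the kidney this gene class is best known for its response to ischaemia, toxic injury and growth factors. The members here were Fos, Fosb, Jun, Junb, Egr1, Ier2, Ier3, Dusp1, Klf6 and Myc, taken as a named list and matched by gene identifier, 10 of the 55536 genes in the count tables. All 10 were found, and all 10 passed the filter on low counts.

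The values are RNA-seq read counts of kidneys from mice, in 36 libraries. C57BL/6 mice (b6j) and ob/ob mice (ob), which lack leptin, become obese and are labelled with the same C57BL/6 strain, each had 3 groups of 6: untreated controls, CdCl2 at 0.5 mg/kg and CdCl2 at 2 mg/kg. Route, duration, age and sex are not given in the sources used here, and because replicates carry only a number, p-values measure the spread between these 36 samples. In bulk kidney RNA, fewer cells of a type and less RNA per cell cannot be told apart. Levels are CPM, counts scaled to a common library size. A gene was called higher or lower at an edgeR quasi-likelihood adjusted p under 0.05 across the 18180 genes tested (18380 without the library described next).

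The libraries held 26783936 to 37244058 counted reads, and no pair was identical. Kidney markers were present in every library, but replicate 5 of the ob 2 mg/kg group stood apart. Its 10 kidney markers summed to 1660 CPM against a group median of 10500, and on the second principal component it lay at -159.1 while the other 35 libraries lay between -20.0 and 34.2. Its level of Lcn2, an injury marker of the tubule, was 1560 CPM against 13.9 to 37.2 in the other 5. The members' changes in ob mice at 2 mg/kg are therefore given with and without it. Replicate 4 of the b6j controls had 181 CPM of the tubular injury marker Havcr1, while the other 5 controls had 2.15 to 13.0. Replicate 3 of the b6j 2 mg/kg group carried adrenal cortex markers (76.7 CPM summed, with a group median of 4.16).

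The members lie on 8 chromosomes of GRCm38 as separate protein-coding genes. Those that answered most plainly are Fos at chr12:85473890-85477273, Jun at chr4:95049034-95052222, Junb at chr8:84974484-84978718, Klf6 at chr13:5861482-5870394, Myc at chr15:61985391-61990374 and Dusp1 at chr17:26505590-26562128. Jun overlaps the antisense transcript Junos and Junb overlaps Prdx2, and counting ignored strand by default, so reads of such overlaps cannot be assigned by strand. The Dusp1 model also spans Ergic1 and smaller transcripts. Upstream sequence is shown for the 5 members that were called at 2 mg/kg in both genotypes, with and without ob replicate 5, and have a RefSeq promoter entry (GRCm38.p6). Myc met the first condition and has no entry used here, nor have Egr1 and Ier2. Each run below is the 250 bases that end just before the RefSeq start, read 5′ to 3′ on the strand of the gene. Capitals mark TGACGTCA (the cyclic AMP response element), its variant TGACATCA, the element's short core TGACG, the TATA box written TATAAA, and the E-box of the MYC family written CACGTG, each searched on both strands. They cover chr12:85473640-85473889 for Fos, chr4:95052223-95052472 for Jun, chr8:84978749-84978998 for Junb, chr13:5861239-5861488 for Klf6 and chr17:26508473-26508722 for Dusp1.
Fos: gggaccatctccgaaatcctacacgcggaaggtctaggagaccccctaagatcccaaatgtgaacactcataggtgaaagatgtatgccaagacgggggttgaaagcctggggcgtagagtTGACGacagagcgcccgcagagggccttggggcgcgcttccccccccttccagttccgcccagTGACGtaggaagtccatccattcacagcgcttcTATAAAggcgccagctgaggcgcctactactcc
Jun: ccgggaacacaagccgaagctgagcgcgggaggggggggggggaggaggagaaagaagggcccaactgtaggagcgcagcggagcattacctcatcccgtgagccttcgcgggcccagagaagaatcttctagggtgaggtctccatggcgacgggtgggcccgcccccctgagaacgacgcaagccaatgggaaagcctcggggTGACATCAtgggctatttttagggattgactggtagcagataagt
Junb: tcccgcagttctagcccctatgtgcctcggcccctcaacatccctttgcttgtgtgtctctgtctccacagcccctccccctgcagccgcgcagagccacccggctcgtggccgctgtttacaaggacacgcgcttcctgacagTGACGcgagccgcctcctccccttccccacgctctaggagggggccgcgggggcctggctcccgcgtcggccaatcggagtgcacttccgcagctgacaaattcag
Klf6: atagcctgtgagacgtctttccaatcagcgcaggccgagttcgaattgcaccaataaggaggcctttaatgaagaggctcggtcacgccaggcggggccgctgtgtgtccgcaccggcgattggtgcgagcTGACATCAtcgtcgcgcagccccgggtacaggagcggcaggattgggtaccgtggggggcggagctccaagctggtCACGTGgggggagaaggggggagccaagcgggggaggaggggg
Dusp1: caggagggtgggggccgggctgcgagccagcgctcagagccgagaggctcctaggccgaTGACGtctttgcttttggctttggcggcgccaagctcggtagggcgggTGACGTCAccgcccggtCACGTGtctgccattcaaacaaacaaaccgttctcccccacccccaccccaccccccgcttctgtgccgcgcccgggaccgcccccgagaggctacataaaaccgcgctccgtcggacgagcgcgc

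Fos has TATAAA at -33 and TGACG at -129 and -66, counted back from the start. Jun has TGACATCA at -45 and Klf6 has it at -119, and Junb has TGACG at -106. Dusp1, called lower at 2 mg/kg in both genotypes, has TGACGTCA at -143 with TGACG inside it and a further TGACG at -191. CACGTG stands at -43 in Klf6 and at -126 in Dusp1. Among all 32851 RefSeq promoter windows of this length, 1.55% hold TGACGTCA, 2.93% TGACATCA, 17.8% TGACG, 12.4% TATAAA and 6.02% CACGTG. TGACATCA and TGACG were added after the sequences had been seen. Of the 7 members with an entry, 0 held a CArG box (the serum response factor site, in 1.47% of windows) or the AP-1 site TGANTCA (6.75%) in these 250 bases. Sequence farther upstream was not searched, so this does not show that the genes lack such sites. GCGNGGGCG, the EGR site, was in Fosb only (4.70% of windows). The antioxidant response core TGACNNNGC was in 2 of the 7, Dusp1 and Klf6 (10.2%), and a short metal response core, TGCNCNC, was in 3, Jun, Junb and Ier3 (44.4%). These matches describe letters in a window and were not tested for use.

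In control kidneys the members spanned a wide range of levels. On the scale of CPM per kilobase of exon, which allows genes to be compared, b6j controls had Dusp1 at 23.9 ± 4.07 (SD, n = 6) and Ier3, a stress-induced regulator of cell survival, at 22.8 ± 5.57, which did not differ beyond their spread. Junb at 8.68 ± 1.38, Jun at 8.58 ± 1.82, Ier2 at 8.37 ± 1.38 and Klf6 at 6.18 ± 1.75 formed a middle tier with overlapping spreads. Below them came Myc at 3.28 ± 1.37, Egr1 at 1.99 ± 2.15, Fos at 0.685 ± 0.276 and Fosb at 0.041 ± 0.0196. Fosb was counted with as few as 2 reads in a library, near the 0.0805 to 0.112 CPM that 3 reads are worth. Most Fosb counts were even numbers, as was every Ier2 count. Whether 2 reads can come from the same RNA fragment was not tested. Dusp1 did not lead this order at 2 mg/kg: in b6j mice Ier3 (22.1 ± 5.93), Junb (15.6 ± 4.2), Jun (14.4 ± 3.33) and Klf6 (12.7 ± 1.61) had higher means than Dusp1 (12.3 ± 2.39), but of these 4 it was Ier3 that differed from Dusp1 beyond the spread. In the 5 other ob kidneys the order was Ier3 (16.3 ± 2.56), Junb (15.8 ± 3.61), Klf6 (15.3 ± 1.88) and Jun (15.1 ± 3.57), all within their spread of each other, and then Dusp1 (9.62 ± 1.5) and Ier2 (9.62 ± 1.78).

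**Figure D1:**
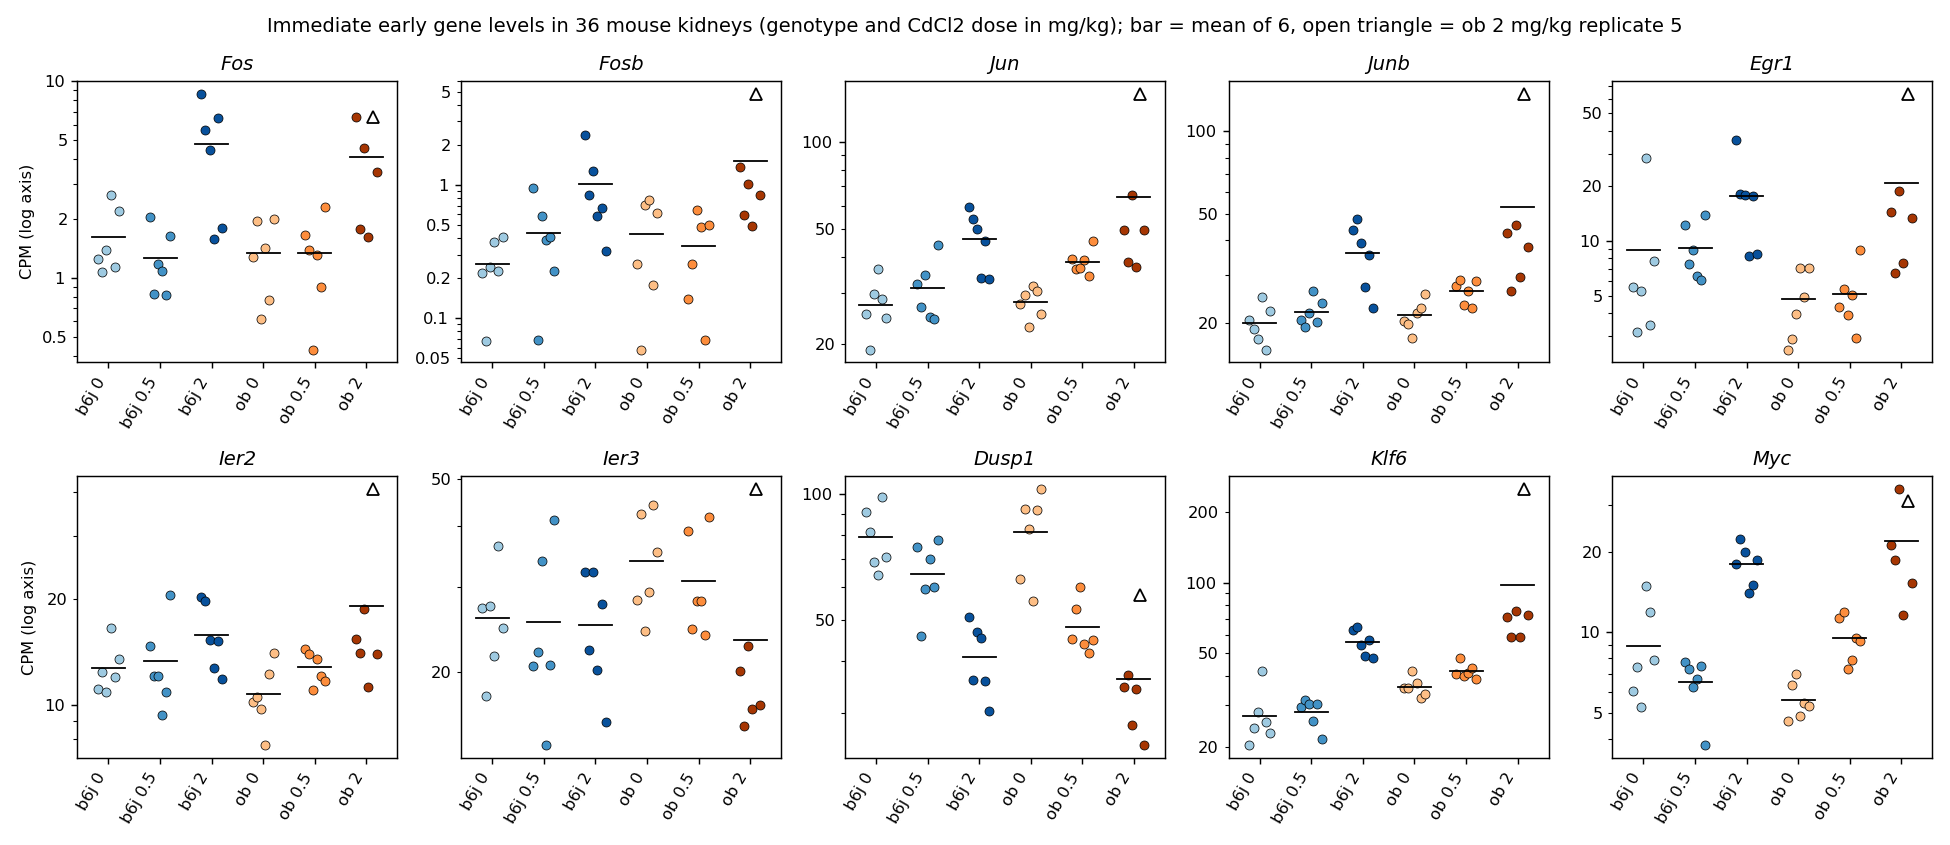
CPM (log axis) of each member in each of the 36 libraries, by genotype and dose, with the mean of 6 as a bar and replicate 5 of the ob 2 mg/kg group as an open triangle. Klf6 at 2 mg/kg lies above every control of its genotype, Dusp1 in b6j mice lies below every control, and the open triangle tops 7 of the 10 panels.

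In b6j mice given 2 mg/kg of cadmium chloride, AP-1 genes, Klf6 and Myc rose and Dusp1 fell. Of the 10 members, 6 were called higher, where 12.3% of all genes tested were, and 1 was called lower, where 11.4% were. The median log2 change of the members was 0.91, against 0.017 over all genes. Both counts were 6 and 1 again without ob replicate 5, with backgrounds of 17.0% and 17.7%. In ob mice at 2 mg/kg 8 members were called higher and 1 lower, against 20.4% and 18.0% of all genes. Without replicate 5 those counts were 7 and 2, against 19.1% and 18.9%, and the members' median log2 change moved from 1.38 to 0.85, with that of all genes at 0.011 and -0.01.

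Fos, the prototype of the class and a partner in AP-1, had 1.07, 1.31 and 2.64 CPM as the lowest, median and highest b6j control and 1.57, 5.09 and 8.63 CPM at 2 mg/kg. In ob mice it had 0.619, 1.34 and 2.0 CPM in controls and 1.61, 4.01 and 6.61 CPM at 2 mg/kg. In each genotype 2 of the 6 treated kidneys stayed within the control range and 4 lay well above it. The log2 change was 1.56 ± 0.40 in b6j mice (adjusted p = 0.00407) and 1.62 ± 0.41 in ob mice (adjusted p = 0.00184), and 1.44 ± 0.41 without ob replicate 5 (adjusted p = 0.00472).

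Fosb, a second FOS protein, was the scarcest member. Its b6j levels were 0.0671, 0.235 and 0.407 CPM in controls and 0.32, 0.755 and 2.35 CPM at 2 mg/kg, a log2 change of 1.95 ± 0.62 (adjusted p = 0.0189) that missed the threshold without b6j 2 mg/kg replicate 1 (1.5, adjusted p = 0.0854). In ob mice the change was 1.82 ± 0.59 (adjusted p = 0.0138). Without replicate 5, at 4.83 CPM against 0.49 to 1.37 in the other 5, it was 1.01 ± 0.54 and was not called (adjusted p = 0.147).

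Jun and Junb, the DNA-binding partners of FOS proteins, rose together. Jun had 19.2, 27.0 and 36.4 CPM in b6j controls and 33.6, 47.6 and 59.5 CPM at 2 mg/kg, where 2 treated kidneys stayed within the control range. In ob mice it had 23.0, 28.6 and 31.7 CPM in controls and 37.1, 49.5 and 146 CPM at 2 mg/kg, so the ob groups did not overlap. Its log2 change was 0.75 ± 0.22 in b6j mice (adjusted p = 0.0126), 1.2 ± 0.22 in ob mice (adjusted p = 6.49e-05) and 0.79 ± 0.16 without replicate 5 (adjusted p = 0.000123).

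Junb had 16.0, 19.7 and 24.8 CPM in b6j controls and 22.6, 37.2 and 47.9 CPM at 2 mg/kg, with the lowest treated kidney inside the control range. In ob mice the levels were 17.7, 21.1 and 25.5 CPM in controls and 26.2, 40.2 and 137 CPM at 2 mg/kg, without overlap. The log2 change was 0.85 ± 0.25 (adjusted p = 0.0101) in b6j mice and 1.32 ± 0.25 (adjusted p = 6.24e-05) in ob mice, or 0.78 ± 0.15 (adjusted p = 5.26e-05) without replicate 5.

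Egr1, a zinc finger factor induced by MAP kinase signalling, was called by edgeR in ob mice, while in b6j mice its call turned on 1 control kidney and on the method. In b6j mice it had 3.16, 5.44 and 28.3 CPM in controls and 8.27, 17.8 and 35.8 CPM at 2 mg/kg. Replicate 4, the control with high Havcr1, held the 28.3 CPM, and every other control was below every treated kidney. The log2 change of 0.98 ± 0.48 was not called (adjusted p = 0.143), whereas without that control it was 1.80 and called (adjusted p = 0.00335). With all libraries kept, limma-voom with sample weights gave 1.41 and called it (adjusted p = 0.00122). In ob mice Egr1 rose by 2.12 ± 0.50 (adjusted p = 0.00102), and by 1.36 ± 0.43 (adjusted p = 0.0119) without replicate 5, the kidney with 63.8 CPM.

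Klf6, a Krüppel-like factor studied in epithelial stress, lay above every control in every kidney at 2 mg/kg. It had 20.4, 24.8 and 41.9 CPM in b6j controls and 47.8, 55.6 and 64.7 CPM at 2 mg/kg. In ob mice it had 32.2, 35.7 and 42.0 CPM in controls and 58.4, 72.0 and 250 CPM at 2 mg/kg, and in neither genotype did these groups overlap. Its log2 change was 1.04 ± 0.23 in b6j mice (adjusted p = 0.000846), 1.44 ± 0.23 in ob mice (adjusted p = 6.82e-06) and 0.91 ± 0.12 without replicate 5 (adjusted p = 1.79e-07).

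Myc had the largest rise of the members in ob mice without replicate 5. Its levels were 5.26, 7.67 and 14.9 CPM in b6j controls and 14, 18.4 and 22.3 CPM at 2 mg/kg, with the ranges touching through control replicate 4. In ob mice they were 4.68, 5.36 and 6.99 CPM in controls and 11.6, 19.9 and 34.4 CPM at 2 mg/kg, without overlap. Myc rose by 1.01 ± 0.23 in b6j mice (adjusted p = 0.000894), by 1.97 ± 0.23 in ob mice (adjusted p = 2.81e-08) and by 1.86 ± 0.23 there without replicate 5 (adjusted p = 3.29e-08), a 3.63-fold change.

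Dusp1 moved the other way. It encodes a nuclear phosphatase that switches off p38 and JNK and is itself induced by glucocorticoids as well as by stress. Its b6j levels were 64.3, 75.9 and 98.5 CPM in controls and 30.4, 40.7 and 50.8 CPM at 2 mg/kg, without overlap. In ob mice they were 55.7, 87.2 and 103 CPM in controls and 25.2, 34.5 and 57.5 CPM at 2 mg/kg, where only replicate 5 reached the control range. Dusp1 fell 1.93-fold in b6j mice (log2 change -0.95 ± 0.17, adjusted p = 5.14e-05) and 2.25-fold in ob mice (-1.17 ± 0.17, adjusted p = 1.13e-06), or 2.55-fold without replicate 5 (-1.35 ± 0.15, adjusted p = 7.37e-09).

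The remaining pair of small early response genes changed less. Ier2, a nuclear protein, had a log2 change of 0.31 ± 0.22 in b6j mice (adjusted p = 0.329). In ob mice it rose by 0.83 ± 0.22 (adjusted p = 0.00272), or by 0.46 ± 0.16 without replicate 5 (adjusted p = 0.0243). Ier3 had a log2 change of -0.05 ± 0.25 in b6j mice (adjusted p = 0.92), with a 95% interval of -0.53 to 0.44. In ob mice its 5 kidneys other than replicate 5 had 15.5 to 22.7 CPM, all below the controls at 24.3 to 44.1 CPM, and replicate 5 had 47.6 CPM. Ier3 was not called with that kidney (-0.54 ± 0.25, adjusted p = 0.083) and fell by 0.87 on the log2 scale without it (adjusted p = 0.00162).

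Counting members whose treated and control groups did not overlap gave 1 above (Klf6) and 1 below (Dusp1) in b6j mice, against 8.36% and 8.92% of all genes. In ob mice 4 members lay wholly above (Jun, Junb, Klf6 and Myc) and 0 below, against 8.39% and 8.73%. Without replicate 5, 4 lay above and 2 below (Ier3 and Dusp1), against 11.3% and 11.1%.

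**Figure D2:**
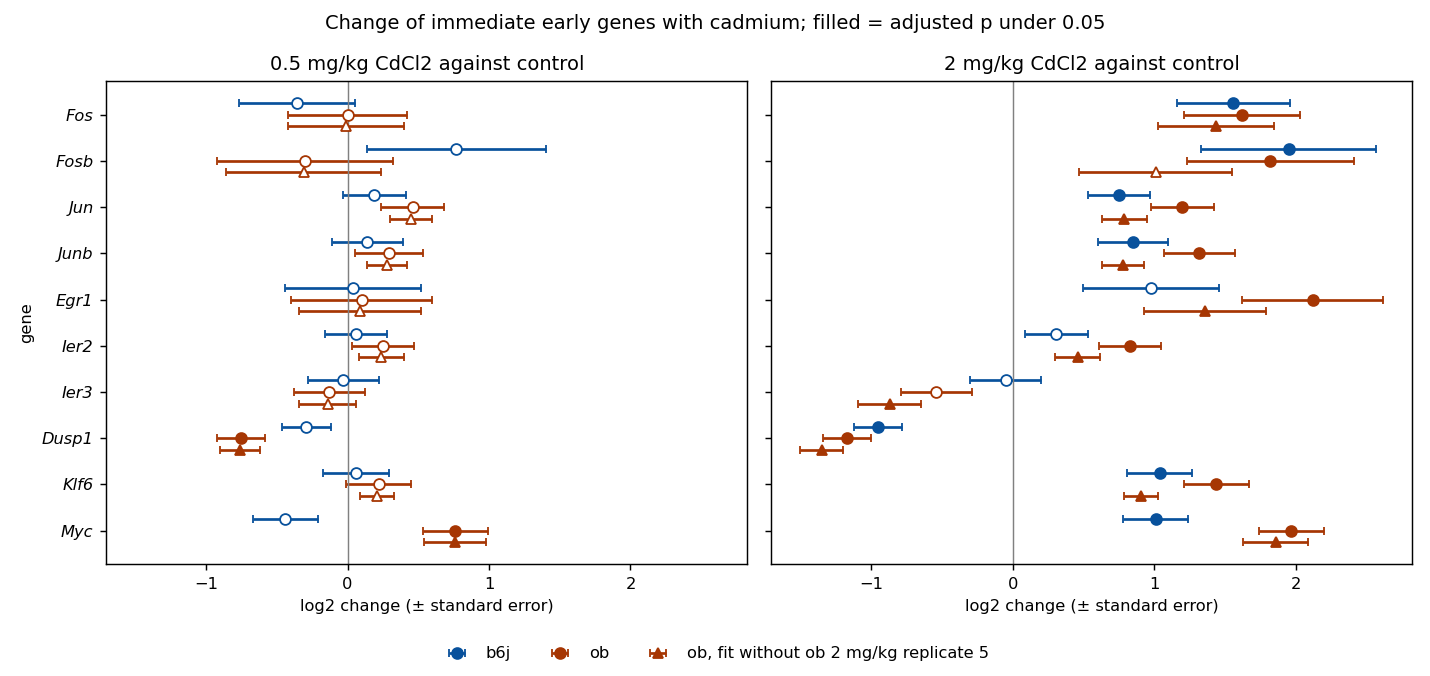
Log2 change from control (x axis, with standard error) for each member at 0.5 and 2 mg/kg in b6j mice, ob mice and ob mice without replicate 5, filled where the adjusted p was under 0.05. At 2 mg/kg Fos, Jun, Junb, Klf6 and Myc lie to the right of 0 and Dusp1 to the left in all 3 fits, while at 0.5 mg/kg Dusp1 and Myc in ob mice are the filled points.

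Cell type markers moved alongside these changes at 2 mg/kg, and their part in the members' levels was not tested. The share of all genes called was 12.3% higher and 11.4% lower in b6j mice and 20.4% and 18.0% in ob mice. Without ob replicate 5 it was 17.0% and 17.7% in b6j mice and 19.1% and 18.9% in ob mice. Of 10 kidney markers, 0 were called higher and 0 lower in b6j mice (3 lower without ob replicate 5) and 6 lower in ob mice (5 without replicate 5), with summed levels of 15600 to 16500 CPM in b6j controls, 10500 to 13700 CPM in b6j mice at 2 mg/kg, 13300 to 15200 CPM in ob controls and 1660 to 11800 CPM in ob mice at 2 mg/kg. Endothelial markers summed to 463 to 521 CPM in ob controls and 210 to 390 CPM at 2 mg/kg, and 6 of 6 were called lower (3 without replicate 5). In b6j mice 0 of those 6 were called, at 296 to 399 CPM in controls and 305 to 367 CPM at 2 mg/kg. Leukocyte markers had 3 of 9 called higher in b6j mice and 3 higher and 1 lower in ob mice (4 and 1 without replicate 5), although their sums overlapped between control (88.1 to 114 CPM in b6j, 75.8 to 91.5 CPM in ob) and 2 mg/kg (91.6 to 113 CPM and 69.3 to 108 CPM). Mural cell and fibroblast markers had 3 of 6 called higher in b6j mice, with sums of 137 to 194 CPM in controls and 199 to 237 CPM at 2 mg/kg. In ob mice 1 of those 6 was called higher and 2 lower, with and without replicate 5, at 200 to 260 CPM in controls and 81.4 to 274 CPM at 2 mg/kg. Red cell markers had 0 of 5 called in b6j mice (2 lower without ob replicate 5) and 3 lower in ob mice (4 without it). Their median sums were 417 CPM in b6j controls, 269 CPM in b6j mice at 2 mg/kg, 451 CPM in ob controls and 239 CPM in ob mice at 2 mg/kg. Leaving out the b6j kidney with adrenal markers changed no member's call at 2 mg/kg against control.

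At 0.5 mg/kg few members moved. In b6j mice 0 of 10 were called by edgeR, where 0.297% of all genes were called higher and 0.0275% lower, and 0 members had an unadjusted p under 0.05. DESeq2 and limma-voom likewise called 0. The groups overlapped for all 10 members, where 0.677% of all genes lay wholly above controls and 0.369% below. The 95% interval of the Egr1 change was -0.91 to 0.99, so these data do not exclude a change within that range. Its estimate of 0.04 ran from -0.14 to 0.86 with 1 library left out. In ob mice 1 member was called higher (Myc) and 1 lower (Dusp1), against 3.55% and 0.737% of all genes, and 1 and 1 without replicate 5, against 6.65% and 3.04%. Dusp1 had 41.8 to 60.1 CPM, touching the control range of 55.7 to 103 CPM, and fell 1.69-fold (-0.75 ± 0.17, adjusted p = 0.00383). Myc had 7.31 to 11.9 CPM, all above the controls at 4.68 to 6.99 CPM, a log2 change of 0.76 ± 0.23 at the edge of the threshold (adjusted p = 0.0481), lost in 26 of the 36 fits that left out 1 library, where the adjusted p ran from 0.0236 to 0.126. Jun also had groups that did not overlap, 34.3 to 45.4 CPM against 23.0 to 31.7 CPM, but its change of 0.46 ± 0.22 was not called by edgeR (adjusted p = 0.32, or 0.0543 without ob 2 mg/kg replicate 5). limma-voom (0.44, adjusted p = 0.0271) and the compared groups alone (0.45, adjusted p = 0.00126) did call it. So 2 members lay wholly above controls in ob mice and 0 below, against 4.30% and 1.39% of all genes.

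Between the 2 doses, Fos, Junb, Klf6 and Myc were higher and Dusp1 lower at 2 than at 0.5 mg/kg in b6j mice, 4 and 1 of the 10 against 8.78% and 8.51% of all genes. Without ob replicate 5, which enters this comparison only through the shared model, 5 were called higher, with Jun added, and 1 lower (13.5% and 15.1%). In ob mice 8 were called higher and 0 lower (15.2% and 14.5%), and without replicate 5, 5 higher (Fos, Junb, Egr1, Klf6 and Myc) and 2 lower (Ier3 and Dusp1), against 13.4% and 14.3%. Wholly above the 0.5 mg/kg kidneys lay Klf6 and Myc in b6j mice (2 members, against 6.28% of all genes, and 0 below against 6.91%) and Klf6 in ob mice (1 member, against 4.36%, and 0 below against 6.56%). Without replicate 5, Klf6 lay wholly above (6.28%) and Ier3 and Dusp1 wholly below (8.10%) in ob mice. These comparisons share the 2 mg/kg kidneys with those against control. Fos was at its control level at 0.5 mg/kg in ob mice (1.33 ± 0.641 against 1.34 ± 0.575 CPM, SD, n = 6), and its step came between the doses (1.62 ± 0.41, adjusted p = 0.00305, and 1.46 ± 0.41 without replicate 5, adjusted p = 0.00703). For Dusp1 in ob mice the mean went from 81.3 ± 18.4 CPM in controls to 48.2 ± 7.02 at 0.5 mg/kg and 36.1 ± 11.4 at 2 mg/kg (31.8 ± 4.98 without replicate 5, n = 5).

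Whether ob mice answered differently from b6j mice was tested as an interaction. At 2 mg/kg 0 of 10 members were called by edgeR, with or without replicate 5, against 1.06% of all genes higher and 1.01% lower (2.20% and 1.93% without it). At an unadjusted p under 0.05 there was 1 with all libraries (Myc) and 2 without replicate 5 (Myc and Ier3), and DESeq2 called 1 with all libraries (Myc, 0.99, adjusted p = 0.0474). The Ier3 difference was -0.49 ± 0.35 (adjusted p = 0.494), and -0.81 ± 0.30 without replicate 5 (adjusted p = 0.118), with an interval of -1.40 to -0.23. The point estimates of the difference were positive for Jun, Junb, Egr1 and Klf6 with all libraries (0.45, 0.47, 1.14 and 0.40) and were 0.04, -0.06, 0.38 and -0.13 without replicate 5. Their intervals without it were -0.38 to 0.47 for Jun, -0.46 to 0.33 for Junb, -0.77 to 1.54 for Egr1 and -0.46 to 0.20 for Klf6. At 0.5 mg/kg 0 members were called by edgeR with all libraries (0.369% of all genes higher, 0.0165% lower), 1 had an unadjusted p under 0.05, and DESeq2 called that gene, Myc. Without replicate 5, 2 had an unadjusted p under 0.05, Myc and Dusp1. The Dusp1 difference was not called by edgeR (-0.47 ± 0.23, adjusted p = 0.635, and -0.47 ± 0.2 without replicate 5, adjusted p = 0.265).

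Myc was the member closest to a difference between the genotypes. Its response at 0.5 mg/kg was -0.44 ± 0.23 in b6j mice, which was not called, and 0.76 ± 0.23 in ob mice, a difference of 1.21 ± 0.32 with a 95% interval of 0.57 to 1.84 (adjusted p = 0.101). Without replicate 5 the difference was 1.2 ± 0.31 and was called (adjusted p = 0.0388, 1 of 10 members against 1.10% of all genes). Of the 36 edgeR fits that left out 1 library, only this 1 called it. Across them the difference ran from 0.99 to 1.32 and the adjusted p from 0.0388 to 0.222. The b6j response ran from -0.56 to -0.24. Control replicate 4 was high in that genotype (14.9 CPM) and 0.5 mg/kg replicate 6 was low (3.80 CPM). DESeq2 gave a difference of 1.21 with all libraries (adjusted p = 0.0335). At 2 mg/kg the difference was 0.96 ± 0.32 (adjusted p = 0.108), and 0.85 ± 0.31 without replicate 5 (adjusted p = 0.116). Both differences share their control groups.

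Among control kidneys, Myc was lower in ob than in b6j mice (5.60 ± 0.901 against 8.91 ± 3.73 CPM, SD, n = 6; log2 difference -0.67 ± 0.23, adjusted p = 0.0417), 1 member lower and 0 higher against 8.93% and 6.60% of all genes. Without b6j control replicate 4, at 14.9 CPM the highest of that group, the difference was -0.46 and was not called (adjusted p = 0.175). The Myc call was lost in 6 of the 36 fits that left out 1 library. It was also lost with limma-voom on all libraries (-0.53, adjusted p = 0.0759). In the fit without ob replicate 5, which is in neither control group but enters the shared spread, 1 was higher and 1 lower (11.8% and 14.2%): Klf6 was higher in ob controls (0.41 ± 0.12, adjusted p = 0.00891), where the full fit gave 0.41 ± 0.23 (adjusted p = 0.249). Klf6 was also called by limma-voom with all libraries (0.47, adjusted p = 0.000592) and by edgeR on the compared groups alone (0.42, adjusted p = 0.0248). In this comparison 0 members had groups that did not overlap, where 5.37% of all genes lay wholly above and 7.93% wholly below.

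The kidney that stood apart carried the highest level among all 36 libraries for 7 members: Fosb, Jun, Junb, Egr1, Ier2, Ier3 and Klf6. Relative to the mean of the other 5 kidneys of its group it had 5.61 times as much Fosb, 5.28 times as much Egr1, 3.79 times as much Junb, 3.71 times as much Klf6 and 3.05 times as much Jun. Fos and Myc ranked second of the 36, with 1.83 and 1.53 times the mean of the other 5. Dusp1 was 1.80 times that mean, yet at 57.5 CPM it was in the middle of the 36 libraries. Its mitochondrial genes took 5.99% of counts, the lowest share of any library, and its red cell markers summed to 5.23 CPM against a group median of 239. The part that these features had in its early gene levels was not tested.

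Within groups, kidneys high in 1 member tended to be high in others. Log2 CPM with the group means removed was correlated for the 45 pairs of members. Without replicate 5 (35 libraries) the median Pearson r was 0.33, from -0.37 to 0.76, and 38 pairs were above 0. By r 16 pairs had a permutation p, drawn within groups and Benjamini-Hochberg adjusted over the 45, under 0.05, and by rho 13 did. Fos and Junb had r = 0.76 and rho = 0.74 (adjusted permutation p = 0.000225 and 0.00045, and r = 0.75 without the 2 libraries farthest out). Jun and Egr1 had r = 0.75 and rho = 0.69 (adjusted permutation p = 0.000225 and 0.00054, r = 0.73 without 2). Junb and Egr1 had r = 0.72 and rho = 0.79 (adjusted permutation p = 0.0003 and 0.000225, r = 0.70 without 2). Klf6 and Myc had r = 0.64 and rho = 0.57 (adjusted permutation p = 0.00229 and 0.00581, r = 0.47 without 2). They did not stand clear of the other members. Egr1 and Klf6 had r = 0.50 (adjusted permutation p = 0.0765). Without the 2 libraries farthest out, Jun and Klf6 had r = 0.53 and Ier2 and Myc r = 0.57. Dusp1 had r between -0.37 and 0.31 with the other members. With all 36 libraries the median r was 0.49 and 27 pairs passed by r, so 11 of them fell out with that kidney. Fos, Jun, Junb and Egr1 thus varied together among kidneys of the same genotype and dose. Removing group means leaves in any difference between kidneys in the size of their rise at 2 mg/kg. Whether these genes varied together apart from that rise was not tested.

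**Figure D3:**
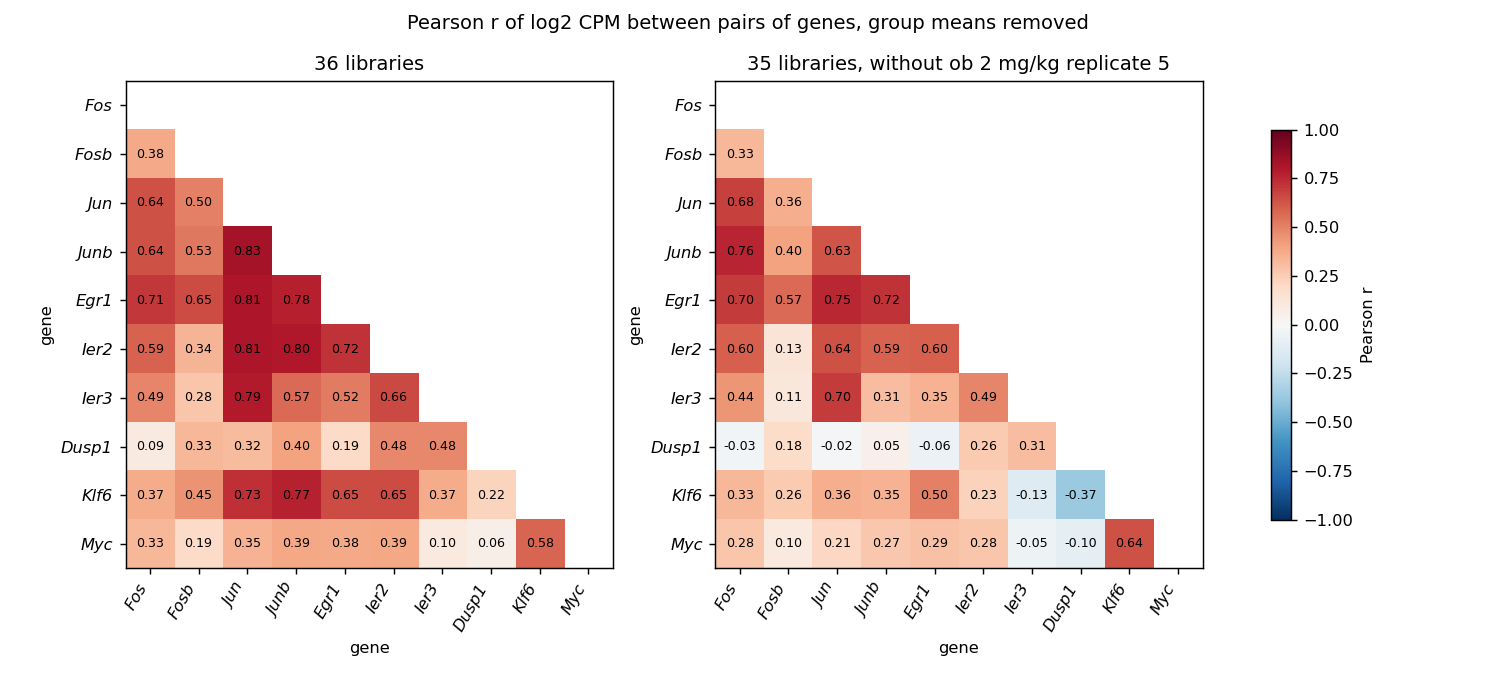
Pearson r between each pair of members across libraries, on log2 CPM with group means removed, for all 36 libraries (left) and for the 35 without replicate 5 of the ob 2 mg/kg group (right). The block of Fos, Jun, Junb, Egr1 and Ier2 stays red in both, from 0.59 to 0.76 on the right. The Dusp1 row is pale on the right and reaches 0.48 on the left, with Ier2 and Ier3.

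The genes most like the members, by correlation with the mean of their scaled within-group levels over the 35 libraries among 11023 genes, were Nr4a1 (r = 0.81), Klf4 (0.73), Ywhah (0.72), Ccn1 (0.70), Trp53 (0.70), Plaur (0.70), Atic (0.70) and Ifrd1 (0.69). Nr4a1 and Klf4 are early transcription factors, Ccn1 is a matrix protein of the early response and Plaur is the urokinase receptor. With all 36 libraries, 2 of these 8 were still among the 8 highest, Klf4 and Ifrd1. The r of Trp53 was then 0.10 and that of Atic 0.03.

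Related genes were counted in the same tests at 2 mg/kg, in lists that hold none of the members, a few genes being on more than 1 list. Each count is to be read against the share of all genes called, which was 12.3% higher and 11.4% lower in b6j mice, 20.4% and 18.0% in ob mice, and 19.1% and 18.9% in ob mice without replicate 5. Several lists lay near it, as the AP-1 partners did in b6j mice. For b6j counts from the fit without ob replicate 5, the share of all genes was 17.0% higher and 17.7% lower. Of 12 AP-1 and small Maf partners tested, 2 were called higher and 0 lower in b6j mice (median 0.05) and 6 and 1 in ob mice (median 0.35), or 5 and 0 without replicate 5 (median 0.09). The AP-1 subunit Fosl2 went from 16.8 ± 3.03 to 28.6 ± 3.96 CPM in b6j mice (0.77 ± 0.22, adjusted p = 0.0101) and rose by 0.71 ± 0.14 in ob mice without replicate 5 (adjusted p = 8.58e-05; 1.17 ± 0.22 with it). Fosl1, another subunit, was near the limit of counting in ob controls (0 to 0.174 CPM) and had 0 to 7.98 CPM in ob mice at 2 mg/kg, and 0.783 to 4.94 CPM in b6j mice at 2 mg/kg against 0 to 1.71 CPM in their controls. The small Maf protein Maff rose by 1.87 ± 0.24 in ob mice without replicate 5 (adjusted p = 1.02e-07; 2.50 ± 0.34 with it), and the stress factor Atf3 also rose (1.61 ± 0.54, adjusted p = 0.0173; 2.50 ± 0.61 with it).

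Early transcription factors other than the members did not share a direction. Of 19 tested, 2 were higher and 2 lower in b6j mice (median 0), and 4 and 5 in ob mice (median -0.06), or 5 and 6 without replicate 5 (median -0.10). Klf4 rose by 1.17 ± 0.28 in b6j mice (adjusted p = 0.00218) and by 0.77 ± 0.17 in ob mice without replicate 5 (adjusted p = 0.000378; 1.41 ± 0.28 with it). Klf15, a factor of amino acid and lipid metabolism, fell by 0.71 ± 0.14 (adjusted p = 0.00016) and, without replicate 5, by 1.01 ± 0.12 (adjusted p = 4e-08; 1.11 ± 0.14 with it). Nr4a1 rose in b6j mice (1.04 ± 0.36, adjusted p = 0.0306), from 3.95 ± 2.0 to 8.16 ± 4.98 CPM (SD, n = 6). In ob mice it was not called by edgeR with or without replicate 5, and its mean was lower at 2 mg/kg (7.27 ± 3.96 CPM) than in controls (9.61 ± 1.82 CPM), within their spread. The difference between the genotypes' responses was called without replicate 5 (-1.74 ± 0.47, adjusted p = 0.0279) and was not called with it.

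Of 34 early response effectors 9 rose and 1 fell in b6j mice (median 0.26), and 17 and 3 in ob mice (median 0.28), or 14 and 7 without replicate 5 (median 0.20). The b6j counts were 17 and 3 in the fit without that kidney, where the share of all genes called was also larger. Plk2, a stress-induced kinase, went from 9.91 ± 2.38 to 38.3 ± 5.76 CPM in b6j mice (1.95 ± 0.20, adjusted p = 2.76e-09) and rose by 2.18 ± 0.16 in ob mice without replicate 5 (adjusted p = 5.05e-13; 2.43 ± 0.20 with it). Ccn1 rose by 1.88 ± 0.22 in b6j mice (adjusted p = 5.4e-08) and by 1.88 ± 0.23 in ob mice without replicate 5 (adjusted p = 2.24e-08; 1.93 ± 0.22 with it). Errfi1, which restrains the EGF receptor, fell from 698 ± 47.4 to 297 ± 30.5 CPM in b6j mice (-1.23 ± 0.14, adjusted p = 1.54e-08) and by 1.39 ± 0.10 in ob mice without replicate 5 (adjusted p = 4.45e-13; 1.2 ± 0.14 with it).

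The MAP kinase phosphatases did not follow Dusp1 as a group. Of 17 phosphatases and Sprouty-type inhibitors, 4 rose and 2 fell in b6j mice (median 0.24), and 5 and 3 in ob mice (median 0.31), or 7 and 3 without replicate 5 (median 0.13). In the fit without that kidney the b6j counts were also 7 and 3, against 17.0% and 17.7% of all genes. Dusp8 rose by 1.38 ± 0.19 in b6j mice (adjusted p = 8.34e-07) and by 1.57 ± 0.18 in ob mice without replicate 5 (adjusted p = 1.44e-08; 1.67 ± 0.19 with it). Dusp14 rose by 1.04 ± 0.15 (adjusted p = 3.84e-06) and by 1.19 ± 0.13 (adjusted p = 4.77e-09; 1.06 ± 0.16 with it). Dusp6, the cytoplasmic ERK phosphatase, fell by 0.56 ± 0.10 (adjusted p = 5.14e-05) and by 0.82 ± 0.10 (adjusted p = 3.13e-08; 0.87 ± 0.10 with it), the direction of Dusp1. Of 31 genes of the MAP kinase cascade itself, 3 rose and 4 fell in b6j mice (median 0.03) and 9 and 5 in ob mice (median 0.07), or 7 and 8 without replicate 5 (median 0.02).

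Glucocorticoid targets were counted because Dusp1 is among that hormone's known targets. Of 13, 2 rose and 6 fell in b6j mice (median -0.53), and 4 and 4 in ob mice (median -0.03), or 3 and 6 without replicate 5 (median -0.29). The 2 that rose in b6j mice were the metallothioneins Mt1 and Mt2, which cadmium also induces, and those that fell included Errfi1, Klf15 and Klf9. Circadian clock genes, 16 in all and with Per1 shared between the lists, had 0 higher and 4 lower in b6j mice (median -0.29), and 3 and 7 in ob mice (median -0.18), or 1 and 10 without replicate 5 (median -0.33). The b6j counts were 1 and 7 in the fit without that kidney, against 17.0% and 17.7% of all genes. Hlf fell by 1.39 ± 0.21 in b6j mice (adjusted p = 5.95e-06) and by 1.98 ± 0.15 in ob mice without replicate 5 (adjusted p = 9.68e-13; 2.18 ± 0.22 with it). Time of day at collection is not given in the sources used here.

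Of 12 MYC partners, 2 rose and 2 fell in b6j mice (median -0.06), and 2 and 1 in ob mice (median -0.02), or 2 and 2 without replicate 5 (median -0.06). Mxd3, a low-abundance MAX partner, rose by 1.09 ± 0.34 in b6j mice (adjusted p = 0.0173) and by 1.52 ± 0.33 in ob mice without replicate 5 (adjusted p = 0.000276; 1.87 ± 0.34 with it). Of 20 known MYC targets, mostly of ribosome production, 6 rose and 3 fell in b6j mice (median 0.14), and 7 and 1 in ob mice (median 0.16), or 8 and 1 without replicate 5 (median 0.13). The targets called higher were thus 6 of 20 in b6j mice and 7 or 8 of 20 in ob mice, a larger share than that of all genes. The difference in share was not tested, and neither was a link to Myc. Gnl3, a nucleolar protein, rose by 0.57 ± 0.09 in ob mice without replicate 5 (adjusted p = 6.36e-06; 0.79 ± 0.13 with it), and Ldha, the glycolytic enzyme, fell in both genotypes (-0.44 ± 0.07 in b6j, adjusted p = 1.42e-05; -0.32 ± 0.07 in ob without replicate 5, adjusted p = 0.000269, and -0.35 ± 0.07 with it). Heat shock genes, 11 tested, had 2 higher and 1 lower in b6j mice (median -0.17), and 3 and 0 in ob mice (median 0.08), or 4 and 0 without replicate 5 (median 0.13). In b6j mice the fit without that ob kidney called 2 higher and 6 lower, against 17.0% and 17.7% of all genes.

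**Figure D4:**
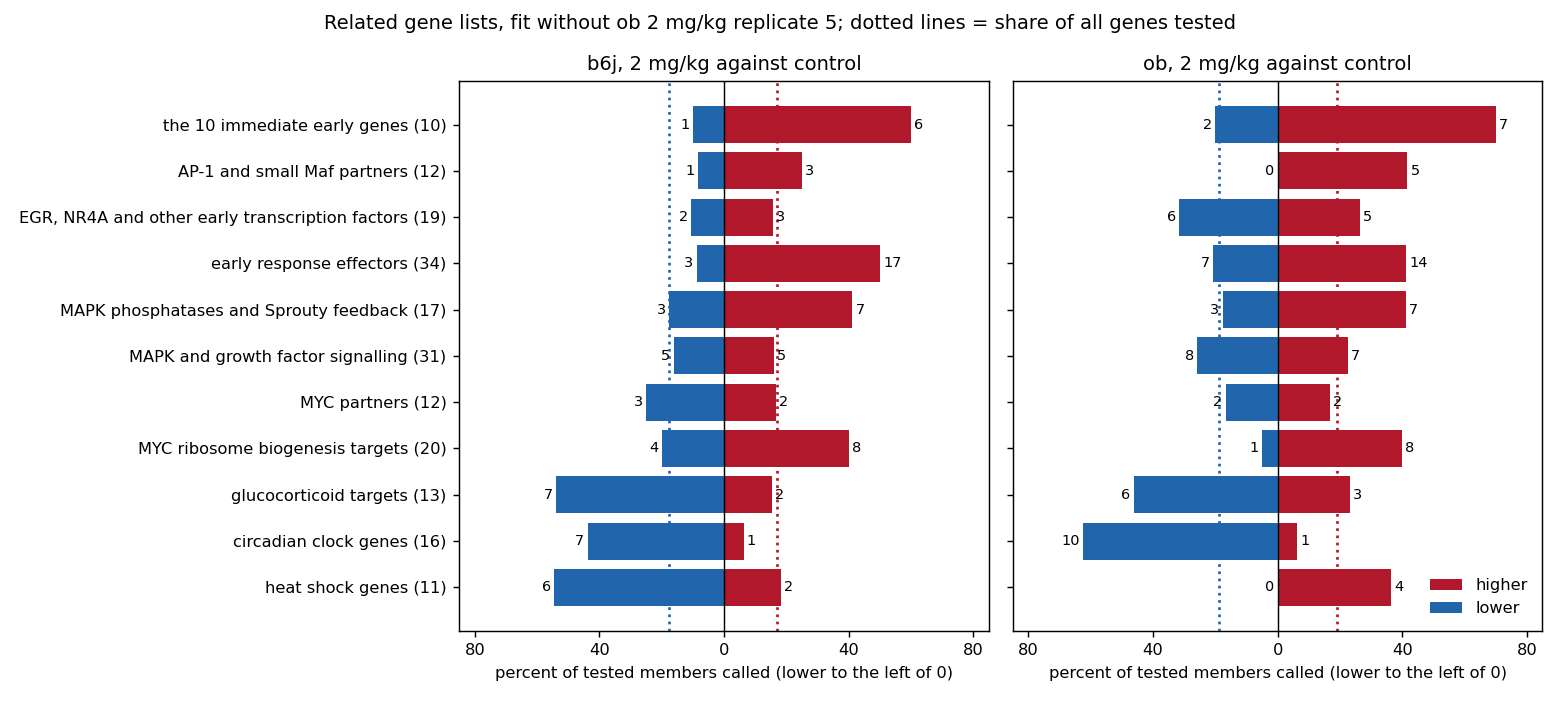
Percent of tested members called higher (right of 0) and lower (left of 0) at 2 mg/kg against control in the fit without replicate 5 of the ob 2 mg/kg group, with the number called beside each bar, the number tested in brackets and dotted lines at the share of all genes. The 10 immediate early genes have 6 and 7 called higher, and the bars of the clock genes reach furthest to the left in ob mice (10 of 16).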

How the data were processed

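Kidney RNA was sequenced in 36 libraries, 6 per group. The submitters' processing notes name Trimmomatic, STAR and GRCm38. Gene counts are by featureCounts 1.4.6-p2 on Ensembl 96, unstranded by default, per the file headers. What the authors deposited for each library is a raw count for every gene. A joined table with 36 further count columns was not used. Symbols and positions came from GENCODE M21. CPM, changes and p-values were computed here with R 4.3.3 and edgeR 4.0.16, using its default expression filter, TMM scaling (factors 0.892 to 1.122), 1 quasi-likelihood model over the 6 groups and Benjamini-Hochberg adjustment over all genes tested. A standard error is the estimate divided by the square root of its F, and intervals are at 95%. Alternatives used DESeq2 1.42.0, limma 3.58.1 (voom with sample weights), RLE size factors, no filter, the compared groups alone, a replicate block and each library left out. Pair correlations used log2 CPM (prior count 0.5) and 100000 permutations within groups. The model was tested on simulated data.

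The members and the gene lists were chosen with earlier results of these data known. Up to 4 called genes of a list with the smallest p could be named, and genes most like the members needed a mean of at least 5 CPM.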

Additional observations from a re-analysis of the deposited data

Results flagged for a closer look

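Of 60 groups of 6 values (10 genes in 6 groups), 12 had a highest or lowest kidney far from the rest, by a gap to its neighbour above 0.625 of the group's range. Chance flags about 1 in 20 such groups. Of the 12, 8 belong to replicate 5 of the ob 2 mg/kg group. There Fosb was 4.83 CPM (others 0.49 to 1.37), Jun 146 CPM (37.1 to 65.4), Junb 137 CPM (26.2 to 45.4) and Egr1 63.8 CPM (6.66 to 18.6). Ier2 was 40.9 CPM (11.2 to 18.7), Ier3 47.6 CPM (15.5 to 22.7), Dusp1 57.5 CPM (25.2 to 37.0) and Klf6 250 CPM (58.4 to 75.7).

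Replicate 4 of the b6j controls had 28.3 CPM of Egr1 (others 3.16 to 7.71) and 41.9 CPM of Klf6 (20.4 to 28.1). Its Atf3 was 23.5 CPM, with 0.806 to 2.24 CPM in the other 5. Replicate 1 of the b6j 2 mg/kg group had 35.8 CPM of Egr1 (8.27 to 18.0). Replicate 6 of the b6j 0.5 mg/kg group had 3.80 CPM of Myc, the low one of its group (6.27 to 7.75).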

How the results depend on the processing

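Of the 10 members, 7 were called at 2 mg/kg against control in b6j mice and 9 in ob mice. Leaving out each library in turn gave 6 to 8 and 9 to 9. The fit without ob replicate 5 lost Fosb and gained Ier3, so the members behind the 9 changed. Fosb was also lost by edgeR on the compared groups alone (1.83, adjusted p = 0.0604). With all libraries, limma-voom called Ier3 lower (-0.9, adjusted p = 0.00139). At 0.5 mg/kg the b6j count was 0 to 0. The 2 called in ob mice at 0.5 mg/kg became 1 with RLE size factors, 1 without the filter, 1 with the replicate block and 5 with the compared groups alone, and 1 to 2 with a library left out. Between controls the 1 called became 0 without the filter, 2 with the compared groups alone and 0 to 2 with a library left out. With limma-voom, Klf6 was called there in place of Myc. The 5 called between doses in b6j mice became 8 with limma-voom (4 to 6 with a library left out), and the 8 in ob mice became 5 with the compared groups alone (7 to 9). The 0 called for the interaction became 1 with DESeq2 at either dose and 1 with the compared groups alone at 0.5 mg/kg, and 0 to 1 with a library left out at either dose. The 27 correlated pairs became 16 without ob 2 mg/kg replicate 5. The cause of these changes was not tested.

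Replicate numbers did not pair the samples: deviations of the 90 same-numbered pairs had a median correlation of 0.007, from -0.148 to 0.215, with 4 over 0.1. With the replicate block, Ier3 was called lower in ob mice at 2 mg/kg (-0.60, adjusted p = 0.0403 by edgeR), while Myc in ob mice at 0.5 mg/kg (0.77, adjusted p = 0.0589), Junb between doses in b6j mice (0.71, adjusted p = 0.0511) and Ier2 between doses in ob mice (0.52, adjusted p = 0.0721) were not called. The block turned the Egr1 interaction at 0.5 mg/kg to -0.01.

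Every change of sign below belongs to an estimate that was not called. With limma-voom, Ier2 at 0.5 mg/kg in b6j mice became -0.04 and Ier3 between doses in b6j mice 0.20. The interaction became -0.35 for Egr1 and 0.08 for Ier3 at 0.5 mg/kg. At 2 mg/kg it became -0.24 for Fos, -0.04 for Jun, -0.14 for Junb, -0.08 for Egr1 and -0.23 for Klf6. With a library left out, the control difference ran from -0.05 to 0.13 for Jun and from -0.04 to 0.13 for Dusp1. At 0.5 mg/kg in b6j mice the change ran from -0.14 to 0.86 for Egr1, -0.11 to 0.15 for Ier2, -0.22 to 0.10 for Ier3 and -0.01 to 0.22 for Klf6. In ob mice at that dose it ran from -0.23 to 0.18 for Fos and -0.13 to 0.24 for Egr1. Ier3 ran from -0.14 to 0.08 at 2 mg/kg in b6j mice and from -0.14 to 0.17 between their doses. The interaction at 0.5 mg/kg ran from -0.78 to 0.23 for Egr1, -0.23 to 0.09 for Ier3 and -0.01 to 0.23 for Klf6. At 2 mg/kg it ran from -0.13 to 0.33 for Fos, -0.93 to 0.32 for Fosb, -0.06 to 0.62 for Junb and -0.13 to 0.53 for Klf6. Fosb could not be fitted between controls with the compared groups alone, and with 2 to 155 reads per library it is the member that depth limits.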
